A study of Drosophila melanogaster with 9 samples.

Results

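Crosslinks of full-length Mei-P26 were compared with those recovered from non-transfected Drosophila S2 cells, using 3 immunoprecipitation libraries of each kind. A gene entered the comparison when it held at least 10 cDNAs over these 6 libraries, and mei-P26 and Act5C were left out because the expression plasmid carries sequence of both. This left 905 genes, of 5628 with a cDNA in these 6 libraries and 6780 in the whole series, and they held 60.9% of all their cDNAs. They comprised 815 protein-coding genes, 26 genes of small nucleolar and Cajal body RNAs, 7 of small nuclear RNAs, 7 of nuclear tRNAs, 23 mitochondrial genes and 27 genes of other RNAs.

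Mei-P26 is a TRIM-NHL protein of the fly germline, where it promotes differentiation and restrains growth. Its NHL domain folds into a propeller that contacts single-stranded RNA rich in uridine, and proteins of this family regulate the mRNAs they bind, often by repression. In iCLIP2, UV light joins a protein to RNA at the nucleotide it touches. Reverse transcription then tends to end at that nucleotide, so that each cDNA marks 1 crosslinked position.

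For the bait libraries, cells grown in 15 cm dishes received 15 µg of plasmid and were harvested 48 h later. The plasmid expressed full-length Mei-P26 with an N-terminal FLAG tag from the Act5C promoter. The control cells are labelled as non-transfected, whereas the treatment protocol, the same text for each sample, calls RNA-binding mutants the control. The labels give anti-FLAG M2 as the antibody of all 6 libraries, and the protocol also mentions control serum. The UV dose was 300 mJ/cm² in the labels and lower in the study's methods, and RNA was trimmed with 10 U of RNase I. The cells are called SL2 in the source field and S2R+ in the growth protocol. They are an embryonic line with hemocyte-like traits and express little Mei-P26 of their own, so the protein was overproduced outside the germline. The design text gives 3 biological replicates of the bait, and for the control only that such reactions were run, so p-values measure the spread between these libraries, which for the control may be technical.

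Full-length replicates 1, 2 and 3 held 14685, 1878 and 21831 cDNAs, against 1252, 1160 and 849 in control replicates 1, 2 and 3. All values below are therefore given per 10000 cDNAs of the library unless raw cDNAs are named. A rate is a share of a library, so that a higher share of some RNAs lowers that of the others, and the rates do not show how much RNA each protein bound per cell. Likewise, fewer cells of a type and less RNA per cell cannot be told apart in bulk libraries. At these depths a single cDNA of a control library corresponds to a rate of at least 7.99, the value of 1 cDNA in control replicate 1. A count of 0 over the 3 control libraries allows up to 3 cDNAs, or a rate of 9.20.

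Full-length replicate 2 stood apart from the other full-length libraries in its shares of small RNA classes, given below, and in the genes with most cDNAs. Over the 18 genes with at least 100 cDNAs, its log2 rates correlated with those of control replicates 1, 2 and 3 at Pearson's r = 0.72, 0.75 and 0.65, and with full-length replicates 1 and 3 at r = 0.38 and 0.55. Full-length replicates 1 and 3 correlated at r = 0.75. Over the 65 genes with at least 60 cDNAs, full-length replicate 2 was not closer to the control. There it correlated at r = 0.59 and 0.55 with full-length replicates 1 and 3, and at 0.58, 0.51 and 0.46 with control replicates 1, 2 and 3. Full-length replicates 1 and 3 correlated at r = 0.69 over these genes. These correlations run across genes, which are not independent replicates and share the library depth. The RNA classes and the main gene lists below are therefore also given without full-length replicate 2. Control replicates 1 and 2 differed by less than the sampling noise over genes (chi-square p = 0.488), while the other pairs of control libraries differed. They shared 1.83% of the crosslinked positions of replicate 1, against 2.25% for replicates 1 and 3, so that they hold different molecules and were kept as separate libraries.

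As a check of the labels, mei-P26 (FBgn0026206, chromosome X) gave 506, 26 and 266 cDNAs in the full-length libraries and 3, 6 and 11 in the control libraries. These are rates of 345, 138 and 122 against 24.0, 51.7 and 130, so that full-length replicate 3 lay below control replicate 3. Act5C (FBgn0000042, chromosome X), the gene of a cytoplasmic actin, gave 42, 1 and 83 cDNAs with the protein and 0 in every control library. Of 14 markers of hemocyte-like cells, 11 had a cDNA, among them the GATA factor gene srp and the collagen genes Col4a1 and vkg, whereas Hml, He and NimC1 had none. Their summed rate ranged from 63.9 to 116 with full-length Mei-P26 and from 47.1 to 128 in the control. Of 7 germline markers only aub had a cDNA, 2 in all, and vas, nos, osk, bam, bgcn and piwi had none. Neuronal markers had 5 cDNAs, and muscle and fat body markers had none.

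Across RNA classes, cDNAs on protein-coding genes made up most of every library, and non-coding small RNAs took a smaller share with full-length Mei-P26 in replicates 1 and 3 but not in replicate 2. Protein-coding genes held 83.3%, 70.3% and 80.4% of the cDNAs of full-length replicates 1, 2 and 3, and 75.0%, 74.9% and 65.3% in the control. The groups overlapped because of full-length replicate 2, with means of 78.0% ± 6.78 and 71.7% ± 5.60 (SD, n = 3 each, exact two-sided permutation test, p = 0.3). Without full-length replicate 2 the full-length mean was 81.8% and the groups did not overlap. With 3 against 3 libraries p cannot go below 0.1, so no comparison of this kind can pass a threshold of 0.05.

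Small nucleolar RNAs (snoRNAs) guide the pseudouridylation and methylation of ribosomal RNA, and their share separated full-length replicate 2 from the other full-length libraries. Together with the related Cajal body RNAs they held 1.85%, 7.40% and 1.94% of the cDNAs with full-length Mei-P26 and 5.91%, 6.21% and 9.42% in the control. The exact 95% confidence interval for full-length replicate 2 was 6.26% to 8.68%, far above those of replicates 1 and 3. The means were 3.73% ± 3.18 and 7.18% ± 1.95 (SD, n = 3 each, exact permutation test, p = 0.3), and 1.89% without full-length replicate 2. Small nuclear RNAs (snRNAs), the RNA parts of the spliceosome and of 7SK particles, held 1.17%, 2.61% and 1.02% against 2.40%, 2.33% and 3.53%. Nuclear tRNAs held 0.804%, 1.60% and 0.618% against 1.52%, 1.55% and 2.47%. Without full-length replicate 2 the full-length means were 1.10% for snRNAs and 0.711% for tRNAs, against control means of 2.75% and 1.85%. In all of these classes full-length replicates 1 and 3 lay below every control library and full-length replicate 2 lay within the control range.

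Mitochondrial transcripts, mostly ribosomal RNA of that organelle, held 4.95%, 10.1% and 5.90% of the cDNAs with full-length Mei-P26 and 6.07%, 7.33% and 7.18% in the control. The groups overlapped, with a difference of the means of 0.11 percentage points (exact permutation test, p = 1.0). Without full-length replicate 2 the full-length mean was 5.43%, below the control mean of 6.86%, so that the sign of the difference rests on that library. The remaining RNA genes were the only class whose groups did not overlap, with 0.912% to 0.958% against 1.20% to 1.65% (exact permutation test, p = 0.1).

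**Figure D1:**
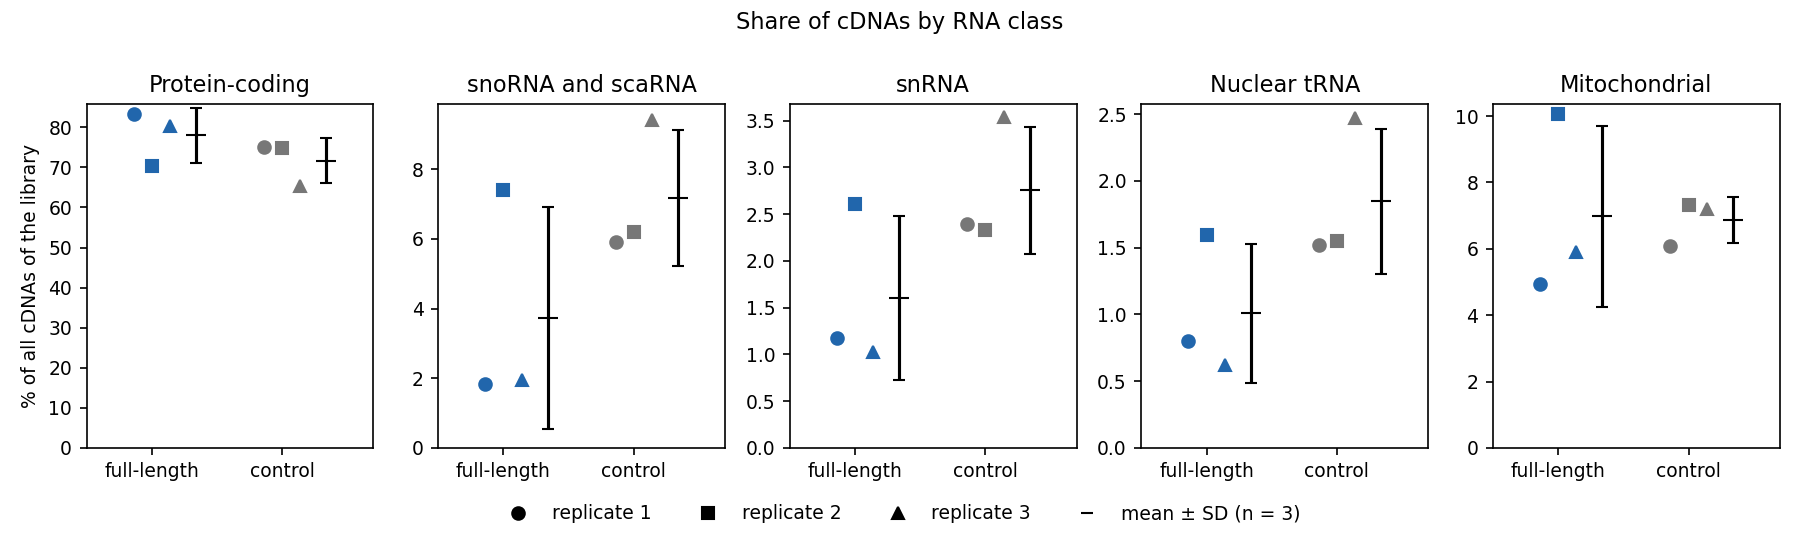
Share of the cDNAs of each library (percent, vertical axes from 0) that lay on genes of 5 RNA classes, for 3 full-length and 3 control libraries, with mean and SD beside them. Full-length replicate 2 (blue square) sits with the control libraries for snoRNAs at 7.40%, while replicates 1 and 3 sit at 1.85% and 1.94%.

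Gene by gene, 2 of the 905 genes changed and both fell with full-length Mei-P26: snoRNA:Tudor-SN-a as well as snoRNA:Psi18S-1347a. The quasi-likelihood test of edgeR, with p-values adjusted after Benjamini and Hochberg over all 905 genes, called 0 genes higher (0% of the genes tested) and 2 lower (0.221%). At an unadjusted p below 0.05 there were 8 genes higher (0.884%) and 29 lower (3.2%). DESeq2 called 0 genes with the same scaling. With its own scaling it called sty and mt:srRNA higher, and edgeR with TMM factors called sty alone. The split of calls between higher and lower was therefore 0 to 2 with all cDNAs as the scale, 1 to 0 with TMM and 2 to 0 with DESeq2's scaling. TMM raised the log2 fold change of the median gene by 1.21 and DESeq2's size factors by 1.09, and both snoRNAs kept a negative sign under both.

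snoRNA:Psi18S-1347a (FBgn0083054, chromosome arm 2R, plus strand) is named for a pseudouridine of 18S rRNA. It gave 3, 4 and 9 cDNAs in full-length replicates 1, 2 and 3 and 4, 6 and 7 in the control, or rates of 2.04, 21.3 and 4.12 against 31.9, 51.7 and 82.4. All full-length rates were below all control rates, and full-length replicate 2 came nearest to the control. It fell by 3.41 on the log2 scale, with a standard error of 0.73 and an edgeR adjusted p of 0.00772. The call was lost without full-length replicate 1 (log2 fold change -2.63, edgeR adjusted p = 0.996), without full-length replicate 3 (-2.85, 0.954) and without control replicate 3 (-3.09, 0.289).

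snoRNA:Tudor-SN-a (FBgn0263470, chromosome arm 3L, minus strand) is named for the gene in which it lies. It gave 8, 4 and 11 cDNAs against 4, 4 and 11, or rates of 5.45, 21.3 and 5.04 against 31.9, 34.5 and 130. The full-length rates again lay below all control rates. It fell by 3.10 on the log2 scale, with a standard error of 0.68 and an edgeR adjusted p of 0.00901. Its call was lost without the same libraries, with log2 fold changes of -2.71, -2.57 and -2.26 and edgeR adjusted p of 0.996, 0.954 and 0.712. Both snoRNAs thus rest on 33 and 42 cDNAs in all.

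Both snoRNAs lie inside protein-coding genes, and a cDNA at such a position counts for both genes. All 33 cDNAs of snoRNA:Psi18S-1347a were shared with pAbp, which encodes the cytoplasmic poly(A)-binding protein, and all 42 cDNAs of snoRNA:Tudor-SN-a with Tudor-SN, which encodes a nuclease with a Tudor domain. Outside small RNA genes, pAbp had 116, 6 and 221 cDNAs with full-length Mei-P26 and 4, 5 and 5 in the control, or rates of 79.0, 31.9 and 101 against 31.9, 43.1 and 58.9. Inside them it had 4, 5 and 12 against 6, 8 and 8. The fall of the snoRNA was thus not shared by the rest of its host gene, whose rate was above every control library in full-length replicates 1 and 3. For Tudor-SN the cDNAs outside small RNAs numbered 8, 0 and 9 against 0, 0 and 1. The whole Tudor-SN gene, at a log2 fold change of -2.37 (standard error 0.65, edgeR adjusted p = 0.150), therefore had 24 of its 41 full-length cDNAs and 19 of its 20 control cDNAs in small RNAs. With only the positions that lie in a single gene, its log2 fold change was 0.455.

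The low count in the control set what could be seen. Median counts per gene were 16 cDNAs with full-length Mei-P26 against 1 in the control, and 248 of the 905 genes had none in the control. With 36 or more full-length cDNAs a gene exceeds the rate that such a 0 allows, and 7 of the 248 genes did. Rates of the full-length libraries lay above all control rates in 105 genes (11.6% of the genes tested), of which 94 had a control count of 0. They lay below all control rates in 33 genes (3.65%). A gene at 0 in the control passed the filter only through its full-length cDNAs, so that these counts are a description. The median log2 fold change over the 905 genes was 0.16, and -0.59 with the 248 genes set at their bound. Over the 657 genes with a control cDNA it was -0.24. At the edge of the selection, 109 genes had exactly 10 cDNAs and 120 genes just outside it had 9.

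**Figure D2:**
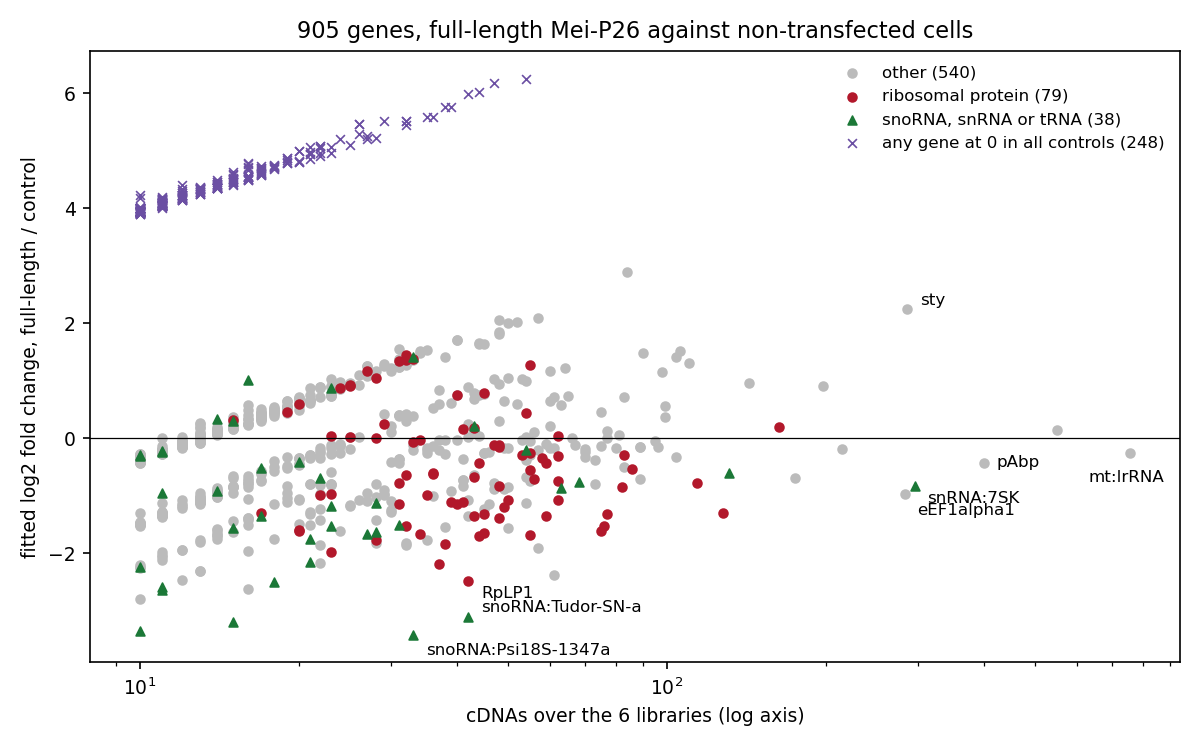
Fitted log2 fold change (full-length over control) of the 905 genes against their cDNAs over the 6 libraries on a log axis, with 1 point per gene and 0 drawn as a line. Ribosomal protein genes (red, where the control is not 0) lie mostly below 0 (55 of all 80, but 22 of 80 with TMM or DESeq2's scaling), the 2 called snoRNAs are at -3.41 and -3.10, and the 248 genes at 0 in the control (crosses) form a separate band whose height depends on the prior count of the fit and is no bound.

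Translation machinery made up the largest group of protein-coding genes described here. Its ribosomal protein genes took a smaller share with full-length Mei-P26 than in the control, whereas its translation factors overlapped between the groups. No member of either list passed the test. The summed rate of a list covers all its genes with a cDNA, also those below the filter. The 87 such genes of nuclear ribosomal proteins summed to rates of 695, 1278 and 870 in full-length replicates 1, 2 and 3 and to 1550, 1405 and 1472 in the control. All full-length libraries were below all control libraries, replicate 2 by the least. The means were 948 ± 299 and 1476 ± 72.2 (SD, n = 3 each, two-sided exact permutation test, p = 0.1), a ratio of 0.642, or 0.530 without full-length replicate 2.

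Of the 80 of these genes in the comparison, 10 had full-length rates below all control rates (12.5%, against 3.65% of all genes) and 1 had them above (1.25%, against 11.6%). Negative log2 fold changes were found in 55 (68.8%, against 46.5% of all genes), with a median of -0.61. With TMM and with DESeq2's scaling this median was positive, 0.65 and 0.60, but remained 0.72 and 0.65 below that of all genes. With all cDNAs as the scale it was 0.77 below. All of these contrasts with all genes depend in part on the filter. The 905 genes include 248 at 0 in the control, but only 1 ribosomal protein gene was among them. Those 248 genes supplied 94 of the 105 genes that lay above the control, and the other 657 supplied 11. Over these 657 genes the median log2 fold change was -0.24 with all cDNAs as the scale. Some ribosomal protein genes host snoRNAs in their introns. Without the cDNAs that lie in small RNA genes, a count added after the data were seen, the ratio was 0.658 (rates of 660, 1161 and 835 against 1446, 1250 and 1343). Relative to cDNAs on protein-coding genes it was 0.616.

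Large-subunit proteins summed to 401, 639 and 502 against 887, 664 and 766, a ratio of 0.666 (exact permutation test, p = 0.1), or 0.585 without full-length replicate 2. Small-subunit proteins summed to 293, 639 and 369 against 663, 741 and 707, a ratio of 0.616 (exact permutation test, p = 0.1), or 0.471 without it. Without the cDNAs in small RNA genes, the large-subunit genes overlapped between the groups (385, 612 and 484 against 839, 560 and 718, exact permutation test, p = 0.2). Both subunits were thus lower on average by similar factors, with full-length replicate 2 closest to the control in each.

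Among single large-subunit genes, RpLP1 (FBgn0002593, chromosome arm 2L), an acidic protein of the ribosomal stalk, had the smallest p. Its rates were 11.6, 5.32 and 4.58 with full-length Mei-P26 and 55.9, 25.9 and 47.1 in the control, on 17, 1 and 10 cDNAs against 7, 3 and 4. The groups did not overlap, and the log2 fold change of -2.48 (standard error 0.72) did not pass the test (edgeR adjusted p = 0.186). RpL10Ab had rates of 8.85, 15.97 and 8.25 against 31.9, 25.9 and 35.3. RpL22 had 9.53, 0 and 5.95 against 15.97, 25.9 and 58.9, of which 20 of its 37 cDNAs lay in intronic snoRNA genes. The large-subunit gene with most cDNAs, RpL41, which encodes a very short basic protein, gave 14.3, 74.5 and 53.1 against 15.97, 43.1 and 58.9, and its groups overlapped.

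Of the small-subunit genes, RpS25 (FBgn0086472, chromosome arm 3R) gave rates of 9.53, 15.97 and 19.7 against 31.9, 60.3 and 47.1. RpS7 gave 15.0, 15.97 and 16.5 against 31.9, 69.0 and 35.3, with 21 of its 76 cDNAs inside snoRNA genes. In both the groups did not overlap, and the edgeR adjusted p was 0.680 for each. Outside small RNA genes, however, the rates of RpS7 were 11.6, 5.32 and 13.3 against 7.99, 43.1 and 23.6, and the groups overlapped. RpS23, which carries most cDNAs of the small-subunit genes, gave 26.6, 47.9 and 25.2 against 79.9, 94.8 and 47.1 and overlapped by less than 1 cDNA.

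Translation factors overlapped between the groups, with summed rates of 169, 202 and 229 against 256, 224 and 318 (ratio 0.753, or 0.749 without full-length replicate 2, exact permutation test, p = 0.2). None of their 23 members passed the test, 12 had negative and 11 positive log2 fold changes. The elongation factor gene eEF1alpha1, which brings aminoacyl-tRNA to the ribosome, held more cDNAs than any other member of the list. Its rates of 53.8, 69.2 and 69.2 lay below the control rates of 120, 103 and 153, a log2 fold change of -0.97 (standard error 0.52, edgeR adjusted p = 0.680). The translocase eEF2 gave 9.53, 21.3 and 16.5 against 15.97, 8.62 and 23.6, and the helicase eIF4A gave 12.3, 10.6 and 11.9 against 0, 17.2 and 0. Neither of these was separated from the control.

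**Figure D3:**
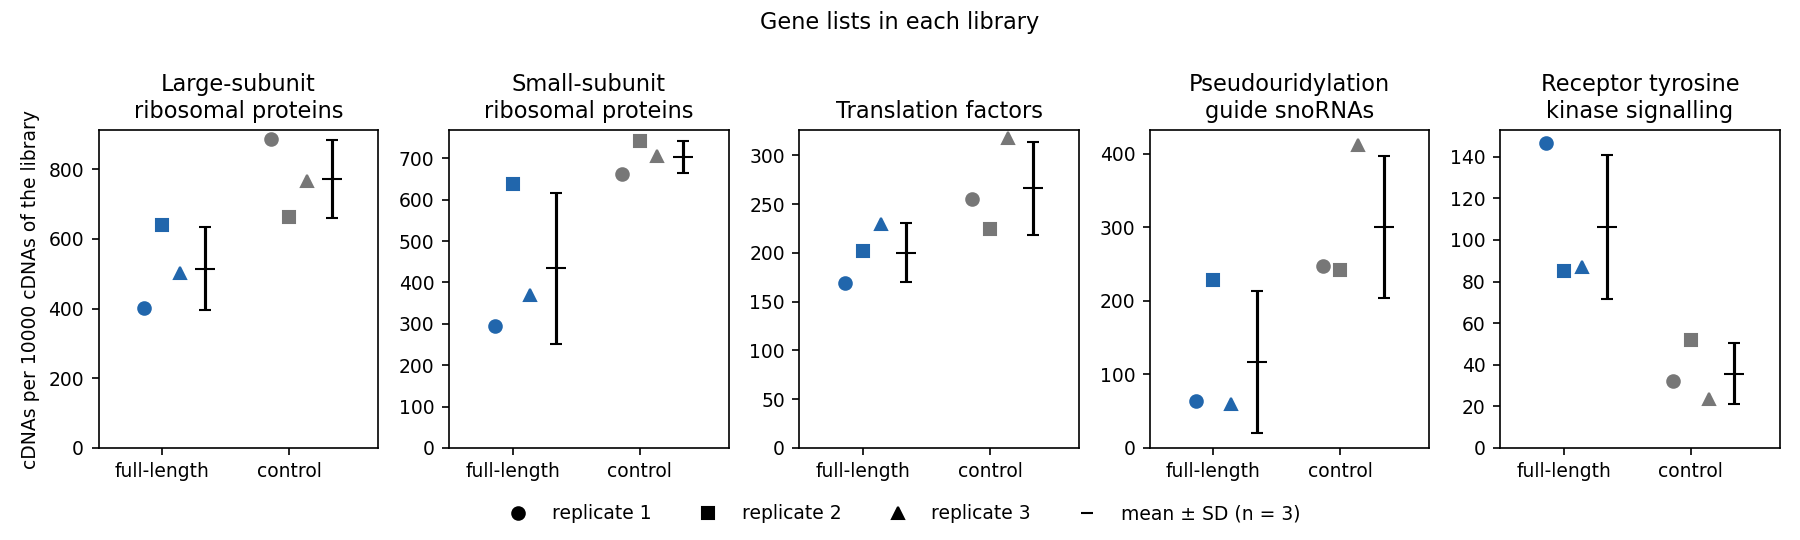
Summed cDNAs per 10000 cDNAs of the library (vertical axes from 0) for 5 gene lists, with 3 full-length and 3 control libraries each and mean and SD beside them. Both ribosomal protein lists and the pseudouridylation guides take a smaller share of every full-length library, and translation factors overlap. Receptor tyrosine kinase signalling is higher, but most of its full-length cDNAs are from sty, and the lists were chosen with earlier results of these data known.

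Among the small RNA genes, the guides of pseudouridylation gave summed rates of 64.0, 229 and 59.1 with full-length Mei-P26 and 248, 241 and 412 in the control. The full-length libraries were below the control libraries, replicate 2 by the least (ratio 0.391, exact permutation test, p = 0.1), and the ratio was 0.205 without it. Of the 10 such guides in the comparison, 9 had negative log2 fold changes (7 with TMM or DESeq2's scaling) and 1 passed the test, snoRNA:Psi18S-1347a. Its neighbour snoRNA:Psi18S-1347b, also within pAbp, gave 1, 1 and 3 cDNAs against 2, 2 and 1. snoRNA:Psi28S-2562, which lies in RpS20, gave 0, 6 and 5 cDNAs against 0, 1 and 6, so that full-length replicate 2 held most of its full-length rate.

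The guides of methylation gave 46.3, 266 and 62.3 against 208, 190 and 271 (ratio 0.561, exact permutation test, p = 0.3), and the ratio was 0.244 without full-length replicate 2. All 5 members had negative log2 fold changes and none passed the test. With TMM and with DESeq2's scaling 3 of the 5 were positive, with medians of 0.06 and 0.16, or 1.30 and 1.09 below the median of all genes. The median of all genes includes the 248 genes at 0 in the control. snoRNA:Or-CD1, an orphan box C/D RNA counted in this list, gave 23.2, 90.5 and 27.9 against 15.97, 51.7 and 130. It carried most cDNAs of the members of the list, so the sums above are not those of methylation guides alone. Full-length replicate 2 was the highest full-length library in both guide lists.

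Of the small nuclear RNAs, 7SK, which holds the kinase P-TEFb inactive, carried most cDNAs and gave rates of 55.2, 202 and 55.0 against 200, 129 and 188. Full-length replicates 1 and 3 were below the control and replicate 2 above it. Its log2 fold change was -0.83 (standard error 0.48, edgeR adjusted p = 0.680), and it was called without full-length replicate 2. The minor spliceosome RNA snRNA:U12 had no overlap, with 6.13, 5.32 and 6.87 against 7.99, 25.9 and 23.6. Of the 7 tRNA genes, tRNA:Lys-TTT-1-1 (2.04, 5.32 and 1.83 against 31.9, 17.2 and 11.8) and tRNA:Leu-CAA-1-1 (7.49, 5.32 and 1.83 against 15.97, 8.62 and 23.6) did not overlap. Neither passed the test, with edgeR adjusted p of 0.338 and 0.680. For snRNA:U12 and tRNA:Leu-CAA-1-1 the lowest control rate, 7.99 and 8.62, was that of a single cDNA, so their lack of overlap rests on that cDNA.

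At the mitochondrial rRNA genes the rates of the groups were close. mt:lrRNA, the gene with most cDNAs of the comparison, gave 143, 272 and 192 against 200, 267 and 247, and mt:srRNA gave 108, 250 and 137 against 128, 147 and 165. Full-length replicate 2 was the highest library for both. The 23 mitochondrial genes had 10 negative and 13 positive log2 fold changes, with a median of 0.11, and none passed the test.

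Among the genes with higher rates, sty (FBgn0014388, chromosome arm 3L, minus strand), which encodes the receptor tyrosine kinase antagonist sprouty, held most cDNAs. It gave 154, 10 and 117 cDNAs against 2, 3 and 0, or rates of 105, 53.2 and 53.6 against 15.97, 25.9 and 0. The groups did not overlap, and full-length replicate 1 was highest. The log2 fold change was 2.25 (standard error 0.81) and did not pass the test (edgeR adjusted p = 0.338). It passed it with TMM (3.46, adjusted p = 1.38e-05 from edgeR), with DESeq2's scaling (3.43, adjusted p = 0.00149) and without full-length replicate 2 (2.37, edgeR adjusted p = 0.00495). The 281 full-length cDNAs fell on 226 positions over 16770 nt. The densest 50 nt, from 3401185 to 3401234 in the coordinates of Ensembl release 98, held 48 of them and 1 of the 5 control cDNAs.

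The other genes of receptor tyrosine kinase signalling had few cDNAs. The list of 14 genes with a cDNA summed to 146, 85.2 and 87.0 against 31.9, 51.7 and 23.6 (ratio 2.97, or 3.27 without full-length replicate 2, exact permutation test, p = 0.1), but the list held 215, 16 and 190 full-length cDNAs, most of them from sty. The list was chosen with earlier results of these data known and includes sty, so its ratio and p are a description and no separate evidence. Pvr, a receptor related to those of platelet-derived and vascular endothelial growth factors, gave 13, 1 and 25 cDNAs against 0 in the control, a pooled rate at least 1.10-fold higher against the floor of 3 counts over the control group. The transcription factor gene pnt gave 11, 2 and 15 against 1, 0 and 0, and Ras85D gave 9, 0 and 5 against none. Of the 7 members in the comparison, 4 had positive and 3 negative log2 fold changes. Pvr and Ras85D passed the filter only through their full-length cDNAs, so the bound for Pvr is a description that covers counting error only.

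The genes that followed sty by p among those without overlap were mostly at 0 in the control. An exception was Hipk, a protein kinase that binds homeodomain factors, with rates of 35.4, 26.6 and 11.9 against 7.99, 0 and 0, a log2 fold change of 2.90 (standard error 1.65, edgeR adjusted p = 0.680). Syp, which encodes an RNA-binding protein, gave 26, 1 and 27 cDNAs, a rate at least 1.53-fold higher. Tis11, which promotes decay of mRNAs with AU-rich elements, gave 35, 1 and 11 (at least 1.33-fold), and the chloride channel gene Clic gave 18, 2 and 24 (at least 1.25-fold). CG13907 and Uba1, the ubiquitin-activating enzyme, were at least 1.19-fold and 1.08-fold higher. Rap1, a small GTPase, and Mvl, a metal ion transporter, gave 32 full-length cDNAs each, below what a control count of 0 could separate. Of the lower genes without overlap not named above, Atg18b, of a family that acts in autophagy, gave 4, 2 and 4 cDNAs against 2, 2 and 2, with 9 of its 16 cDNAs in snRNA:U4:39B. All 32 cDNAs of CR33222 were shared with RpS6. None of these passed the test, and all of the bounds refer to the same floor over the 3 control libraries. The genes at 0 in the control passed the filter only through their full-length cDNAs and were picked by p among many such genes. Their bounds cover counting error only, not the spread between libraries, and are a description.

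**Figure D4:**
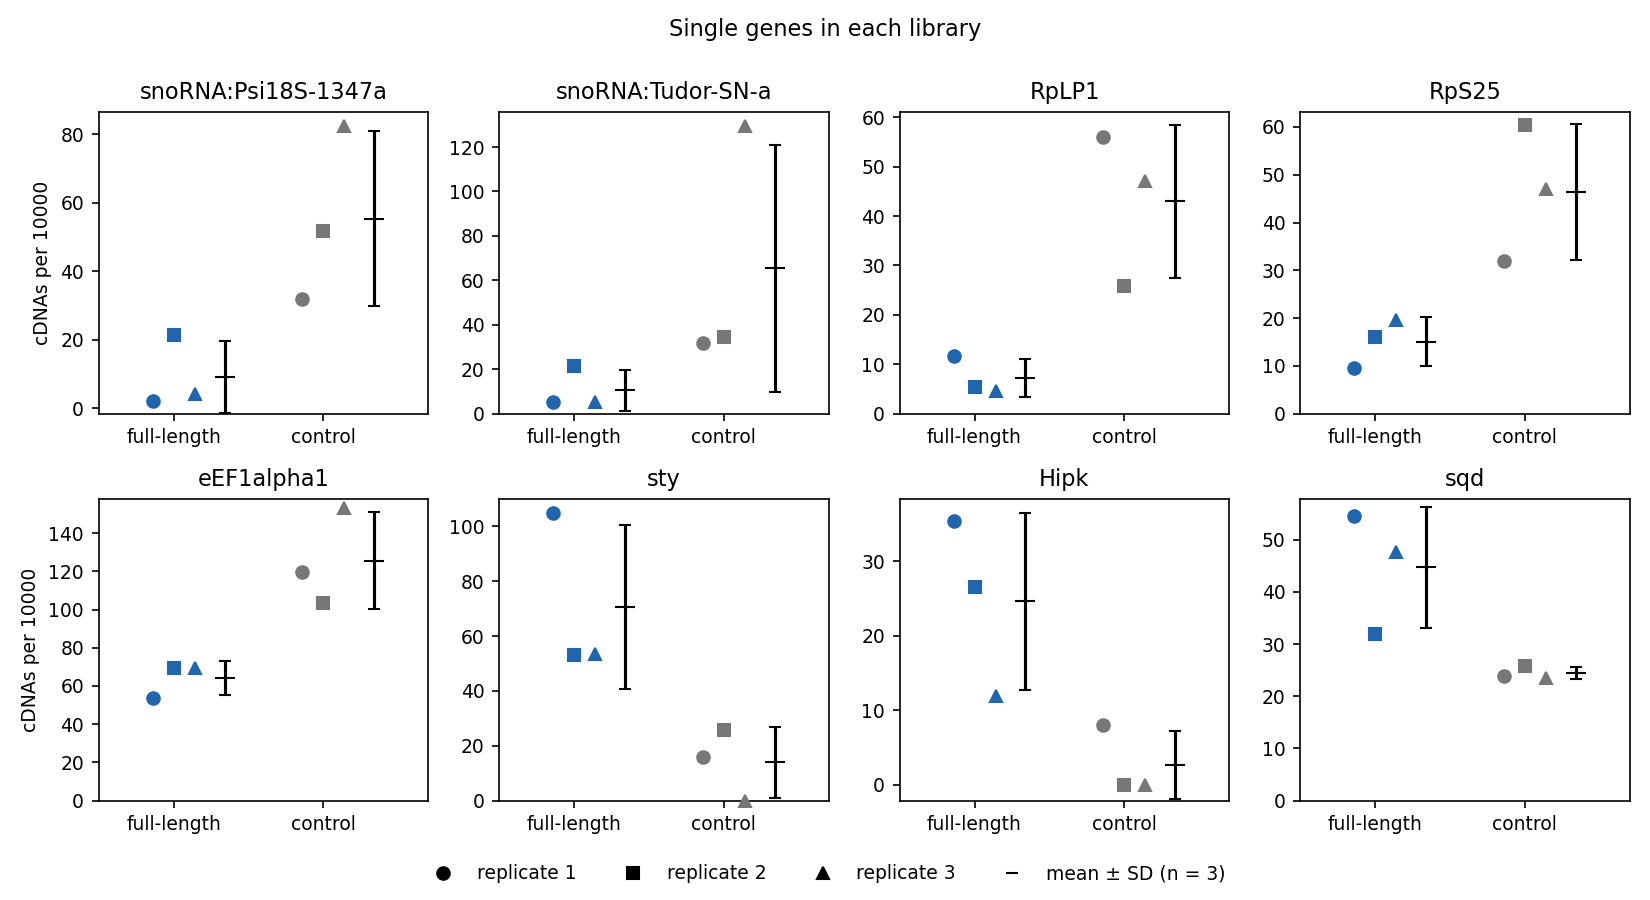
cDNAs per 10000 cDNAs of the library for 8 genes in 3 full-length and 3 control libraries, with mean and SD beside them. The groups do not overlap in any of the 8, with the snoRNAs, RpLP1, RpS25 and eEF1alpha1 lower and sty, Hipk and sqd higher with full-length Mei-P26, and only both snoRNAs passed the test over all genes.

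The study tested Mei-P26 on selected RNAs in vitro or as reporters, and 15 of those 16 genes were in the comparison, with nos at 0. They were chosen by the study with these libraries in view, so their values are no independent evidence. The RNA probes below are those of the 5 genes with a binding assay, shown 5′ to 3′ from the study's list of oligonucleotides. Capitals mark the first match to UUUUACN or UUUUANA or UUUUNCA or UUUUUUU, with N any base, or, where there is none, 4 uridines with a further one among the next 3 bases.
LanA: auccuUUUUAAAacucc
lost: cccUUUUUUUauacacaa
Mlc-c: ggucuUUUUACAaaag
Col4a1: gccaUUUUUUAucugcca
Hrb27C: aguaaUUUUUUCuauuaaagu

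LanA, lost and Mlc-c hold 1 of the 4 named motifs, and Col4a1 and Hrb27C hold only the looser uridine-rich match. In the libraries, LanA (FBgn0002526), a laminin of the basement membrane, gave rates of 25.2, 15.97 and 17.9 against 15.97, 0 and 23.6. lost, which acts in the localization of mRNAs in the oocyte, gave 9, 2 and 36 cDNAs against 1, 0 and 0, and Mlc-c, a light chain of non-muscle myosin, gave 4, 0 and 18 against 1, 0 and 0. For neither of them do the rates separate the groups, because 1 control cDNA already corresponds to 7.99.

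Col4a1 (FBgn0000299), a chain of collagen IV, gave 18, 1 and 76 cDNAs against 2, 0 and 1, a log2 fold change of 1.16 (standard error 1.04, edgeR adjusted p = 0.680). Of its 95 full-length cDNAs, 26 lay between 5037044 and 5037093 on chromosome arm 2L, 23 of them in replicate 3, and none of its 3 control cDNAs did. Hrb27C, an hnRNP, gave 19.7, 10.6 and 23.4 against 7.99, 25.9 and 35.3 and had no such concentration, with 8 of 82 full-length cDNAs in its densest 50 nt. Genes with either kind of probe thus overlapped between the groups.

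The hnRNP gene sqd and spz, which encodes the ligand of the receptor Toll, were the members of this set whose groups did not overlap. sqd gave rates of 54.5, 31.9 and 47.6 against 24.0, 25.9 and 23.6 and a log2 fold change of 0.92 (standard error 0.72, edgeR adjusted p = 0.680). spz gave 17, 2 and 20 cDNAs against 1, 0 and 0, with 19 of its 39 full-length cDNAs between 27065022 and 27065071 on chromosome arm 3R. RpS23, as given above, and RpS20 had negative log2 fold changes of -1.29 and -1.35, whereas sta was at 0.44. RpS20 had rates of 8.85, 58.6 and 9.62 against 7.99, 43.1 and 94.2, and 18 of its 59 cDNAs lay in snoRNA:Psi28S-2562. With TMM and DESeq2's scaling 2 of the 15 genes were negative in place of 7. sta, the laminin receptor homologue of the small subunit, gave 12.3, 5.32 and 14.7 against 15.97, 8.62 and 0. Hsp83, a cytosolic chaperone, and chic, the profilin gene, gave log2 fold changes of -0.49 and -0.05, and bic and Swip-1 gave -0.67 and -0.25. Over the 15 genes 7 log2 fold changes were negative and 8 positive, with a median of 0.44, and none passed the test.

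Most other gene lists overlapped between the groups of libraries. Genes of extracellular matrix summed to 96.7, 58.6 and 121 against 136, 112 and 47.1, chaperones to 68.1, 74.5 and 127 against 87.9, 103 and 70.7, and genes of mRNA repression and decay to 157, 122 and 156 against 136, 129 and 200. Within the last of these, the gene of the related TRIM-NHL protein brat gave 28, 3 and 18 cDNAs against 3, 0 and 0, and pum, which encodes the repressor Pumilio, gave 11, 1 and 12 against 1, 0 and 1. The proteasome list had higher rates in every full-length library, 29.96, 31.9 and 47.6 against 24.0, 25.9 and 23.6 (ratio 1.49, exact permutation test, p = 0.1). These rates rest on 44, 6 and 104 cDNAs against 3, 3 and 2, and none of the list's genes reached 10 cDNAs. The gap between the groups was smaller than the rate of a single control cDNA, which is at least 7.99. Their lack of overlap thus rests on less than 1 control cDNA. In these lists no member passed the test. The study sorted its own targets by motif on these libraries, so that its lists are no independent evidence. Its genes with a uridine-rich motif summed to 443, 596 and 621 against 775, 698 and 695, lower in every full-length library (ratio 0.766, exact permutation test, p = 0.1). Those with a bona fide motif summed to 889, 948 and 1026 against 974, 1207 and 1166, which overlapped (ratio 0.855, exact permutation test, p = 0.2), and those without a motif had a ratio of 1.05.

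Where in a gene the crosslinks fell also differed between libraries. Windows of 50 nt were placed on the densest stretch of each protein-coding gene in 1 full-length library, at least 3 cDNAs deep, and read in the libraries not used to place them. Positions in small RNA genes were left out. With windows from full-length replicate 1, 71 ribosomal protein genes had 33.7% and 39.4% of their cDNAs in the window in full-length replicates 2 and 3 (exact 95% confidence intervals 27.3% to 40.5% and 37.1% to 41.8%). The control libraries had 24.8%, 35.8% and 19.8%. Control replicate 2 thus lay between both full-length libraries, and the others below them.

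With windows from full-length replicate 3, 78 ribosomal protein genes had 35.2% and 32.3% in full-length replicates 1 and 2, against 24.2%, 34.7% and 25.0% in the control. In the other protein-coding genes the windows held smaller shares. Those from replicate 1, in 228 genes, held 13.2% and 21.4% in full-length replicates 2 and 3 and 14.2%, 15.7% and 14.2% in the control. Those from replicate 3, in 401 genes, held 15.8% and 18.5% against 15.2%, 16.6% and 22.2%. The dense stretches of ribosomal protein mRNAs were therefore found again in control libraries in between 19.8% and 35.8% of the cDNAs.

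**Figure D5:**
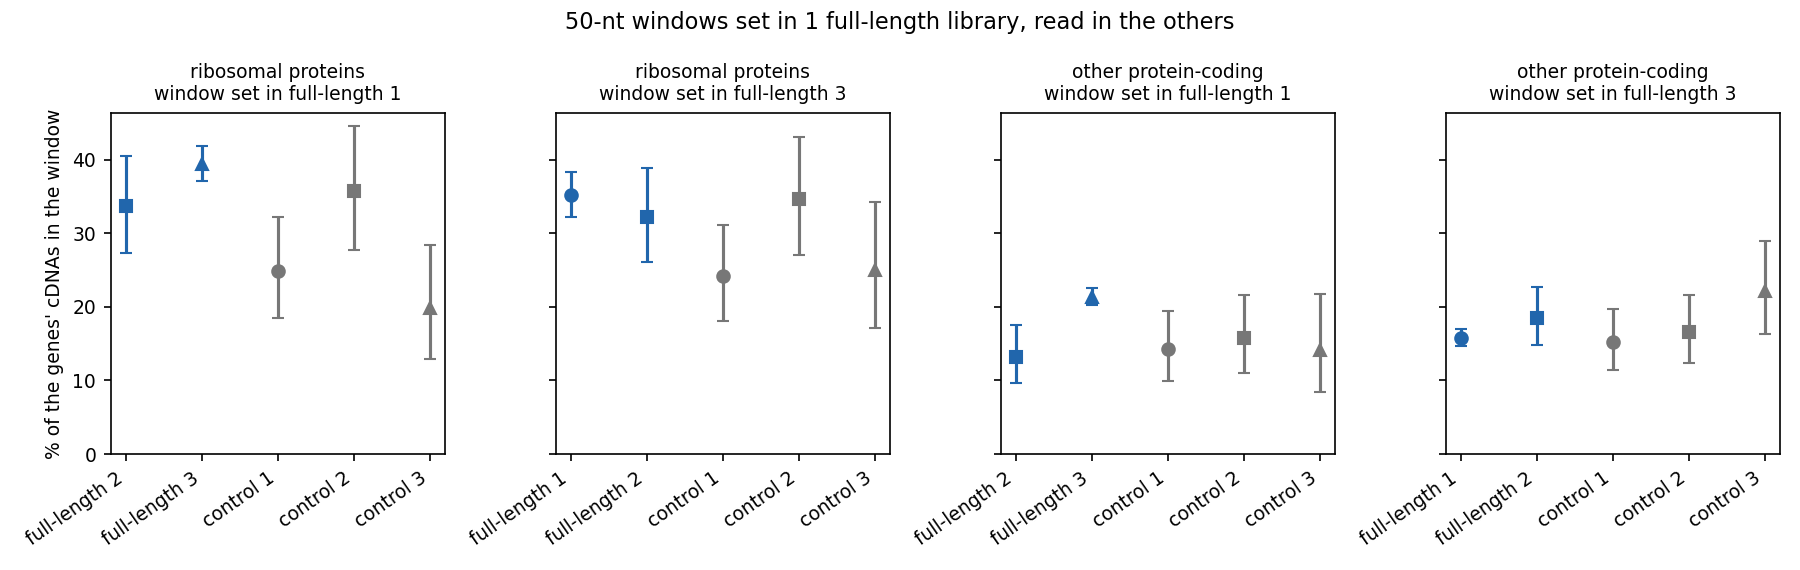
Percentage of the cDNAs of ribosomal protein genes and other protein-coding genes that fell in 50-nt windows placed in full-length replicate 1 or 3, read in the other full-length (blue) and control (grey) libraries, with exact 95% confidence intervals. In ribosomal protein genes control replicates 1 and 3 sit at 19.8% to 25.0% and the other libraries at 32.3% to 39.4%, whereas in other genes the libraries overlap.

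Examples of such stretches were RpS25 on chromosome arm 3R, where positions 11215443 to 11215492 held 28 of 60 full-length cDNAs and 3 of 15 control cDNAs. In pAbp, positions 18147055 to 18147104 of arm 2R held 81 of 343 full-length and 4 of 14 control cDNAs outside small RNAs, so that the share was not larger with full-length Mei-P26. These stretches were chosen on the full-length cDNAs and carry no test.

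Crosslinks in ribosomal protein genes also lay further towards the downstream end of the crosslinked stretch in full-length replicates 1 and 3. Full-length replicate 2, at 49.1%, was close to control replicate 2, at 47.9%, and no confidence interval was computed for these shares. The other protein-coding genes overlapped between the groups. In 604 protein-coding genes with at least 20 crosslinked positions, the downstream 20% of the crosslinked stretch (first to last position over all libraries) held 61.6%, 56.4% and 67.4% of the cDNAs in the full-length libraries. The control mean was 52.1% ± 1.47 and its highest library 53.7%, so the groups did not overlap (exact permutation test, p = 0.1). In the 80 ribosomal protein genes these shares were 58.9%, 49.1% and 63.2% against 38.7%, 47.9% and 42.1%, and the groups did not overlap (means 57.1% ± 7.25 and 42.9% ± 4.67, SD, n = 3 each, exact permutation test, p = 0.1). In the other 524 genes they were 62.1%, 59.5% and 68.4% against 56.8%, 53.0% and 60.1%, and the groups overlapped (exact permutation test, p = 0.2). The value over all 604 genes also depends on how many cDNAs ribosomal protein genes hold, a share that was larger in the control. The stretch is set by the observed crosslinks, mostly those of the deeper libraries, and was not matched to transcript ends.

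The authors' clusters of significant crosslinks, called in each replicate, marked 797 genes in at least 1 full-length library, 116 in at least 2 and 14 in all 3, leaving out mei-P26 and Act5C. A control library held a cluster in 43, 19 and 7 of these genes (5.40%, 16.4% and 50.0%), and 79 genes had a control cluster at all. Of the 116 genes, 107 were in the comparison and 94 were protein-coding. The 14 genes with a cluster in every full-length library included mt:srRNA, snRNA:7SK, Swim, FASN2, a fatty acid synthase, RpL23A, RpL28, mask, Trf2, Uhg7, lncRNA:CR44999, scaRNA:MeU2-G25, tRNA:Ala-TGC-2-1 and tRNA:Ser-TGA-1-1. Trf2, a relative of the TATA-binding protein, had 47 full-length cDNAs and 1 control cDNA, whereas 7SK also had clusters in all 3 control libraries. None of the 14 passed the test over whole genes.

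Of the positions crosslinked in control replicates 1, 2 and 3, 49.8%, 48.5% and 59.1% lay within 20 nt of a position of any full-length library. In single libraries the recurrence followed depth, with 42.5%, 40.6% and 51.5% found again in full-length replicate 3 and 18.2%, 19.3% and 28.0% in the shallow full-length replicate 2. Of the positions of full-length replicate 2, 40.0% and 45.3% recurred in full-length replicates 1 and 3, close to the shares of the control libraries.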

How the data were processed

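Sequencing reads had been split by barcode, freed of PCR duplicates and adapters, and aligned per replicate to the fly genome (Ensembl release 98) by the authors, using iCount. Its version was not given in the sources used here, and the submitters' processing notes name STAR 2.7.3a. Deposited values are raw counts of distinct cDNAs per crosslinked nucleotide. The deposited score table adds gene annotation and the p-value of the peak caller as a false discovery rate, on which the authors' peaks and clusters rest.

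Counts were summed per FBgn gene, with a position counted for each gene it lies in. Coordinates are counted from 1. Of 905 genes, 893 matched the gene name table, and RNA classes came from RefSeq biotypes by symbol, or for small nucleolar RNAs from the symbol itself. Of the deposited rows, 14.6% lie in several genes. Genes were tested with edgeR 4.0.16 in R 4.3.3 (quasi-likelihood test, 6 libraries, library size from all cDNAs, no TMM, Benjamini-Hochberg threshold 0.05). The alternatives included DESeq2 1.42.0. Exact permutation tests (two-sided) compared group values in Python 3.11.15 with NumPy 2.4.6, pandas 2.3.3 and SciPy 1.17.1, drawn with matplotlib 3.10.9. Confidence intervals are Clopper-Pearson at 95% and, like the floor of 3 counts over the control group, cover counting error only. The fit was tested on simulated data. No genome sequence was used.

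Genes were named by a rule: those called, up to 10 in each direction with the smallest p among genes whose rates do not overlap, the genes of the study's binding assays and reporters, and up to 4 members with most cDNAs of each list. The genes with clusters in all 3 full-length libraries, dom and the marker genes were named after their values were seen. Members and lists were chosen with earlier results of these data known. Control replicates 1 and 2 summed, and lists without small RNA genes, were alternatives added after the data were seen. Results of some genes are not reported here.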

Additional observations from a re-analysis of the deposited data

How the results depend on the processing

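The comparison called 2 genes, 0 higher and 2 lower. The total was 1 with TMM (1 higher, 0 lower) and 2 with DESeq2's own size factors (2 higher, 0 lower). It was 0, with 0 lower, with edgeR's default filter, which left 7 genes, with no filter, with DESeq2 scaled to all cDNAs, and with only positions in a single gene. By construction that last setting drops both called snoRNAs. Without 1 library in turn the total ranged from 0 to 7, from 0 to 1 higher and from 0 to 6 lower. It was 0 without full-length replicate 1 or 3 or control replicate 3, and 7 without full-length replicate 2 (sty higher, and among the 6 lower dom, Tudor-SN, snRNA:7SK and both snoRNAs). With a replicate block it was 0, with 0 lower and 13 genes at an unadjusted p below 0.05. Libraries of the same number did not deviate together (r = 0.02, -0.01 and -0.07). With so few control cDNAs per gene this check could not show a pairing, so whether the libraries were paired is not known. Scaling to cDNAs on genes or on protein-coding genes, at least 20 cDNAs, all 9 libraries, positions and the summed control replicates 1 and 2 each gave the same count.

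Of the named genes' log2 fold changes, 18 of 657 alternatives changed sign, none of them for a called gene. With TMM and DESeq2's scaling these were bic (0.58 and 0.51), chic (1.18 and 1.12), Hsp83 (0.70 and 0.67), Hrb27C (1.12 and 1.06) and Swip-1 (1.00 and 0.89). Tudor-SN was at 0.455 with single-gene positions and Hrb27C at 0.15 with positions. Without 1 library in turn the values ranged from -1.28 to 0.53 for chic, -0.60 to 0.25 for Hrb27C, -0.31 to 5.11 for Mlc-c and -0.92 to 1.07 for Swip-1. The cause of these changes was not tested. The differences in RNA classes and in 11 gene lists moved by less than 1 SD, the larger of the 2 groups, under each alternative run. Leaving out 1 of 3 libraries cannot move a mean by that much, so those alternatives were no check. Without full-length replicate 2 the full-length mean of snoRNAs went from 3.73% to 1.89%. That of mitochondrial transcripts went from 6.97%, above the control mean of 6.86%, to 5.43%. Genes with recurrent clusters numbered 116 in at least 2 full-length libraries, 14 in all 3, 797 in at least 1, and 18 to 96 without 1 library. Control positions found again averaged 52.5% within 20 nt, 15.7% at 0 nt, 39.1% within 5 nt and 60.6% within 50 nt. The depth of the control, 849 to 1252 cDNAs a library, limits every comparison.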
